A study of Caenorhabditis elegans with 2 samples.

Results

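F44E7.13 and Y65B4BR.10 are 2 genes of the annotation's ncRNA class, which is separate from its tRNA, snoRNA, snRNA, rRNA and miRNA classes. They were selected on measured values: each had a region in the authors' thresholded list from both samples together, here called the pooled list, whose summit lay within 250 bp of the annotated transcription start site (TSS). No TSS of a tRNA, snoRNA, snRNA, SL RNA or miRNA gene lay within 250 bp of that summit. They are 2 of 27 ncRNA genes that meet the rule, among 7764 ncRNA genes and 46926 genes in all. F44E7.13 (WBGene00197078) is a gene of 147 bp on the plus strand at chrV:5780869-5781015. Y65B4BR.10 (WBGene00201456) is a gene of 128 bp on the minus strand at chrI:536804-536931. Coordinates are on the ce11 build, which is WBcel235 under another name. Since the peak signal chose the members, that signal is given below as a description and was not tested.

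The study mapped where ZIP-11, fused to eGFP, sits on chromatin in whole Caenorhabditis elegans, by chromatin immunoprecipitation with an anti-GFP antibody and sequencing (ChIP-seq). The 2 samples are biological replicates 1 and 2 of 1 group. The worms were strain OP761, whose transgene wgIs761 carries zip-11::TY1 EGFP 3xFLAG together with unc-119(+), in an unc-119 (tm4063) background. They were L4 larvae aged 52.5 hours, synchronised by bleaching and starvation at L1. Whole animals were used, so the cell types that gave the signal cannot be told apart, and there was no second condition to compare. The lists gave no check of the transgene. No summit of any list lay within 1000 bp of the zip-11 TSS, and unc-119 had summits in the ranked lists but none in a thresholded list.

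ZIP-11 is a basic leucine zipper (bZIP) protein, a family of transcription factors that bind DNA as dimers. Many short noncoding RNA genes are transcribed by RNA polymerase III, and in tRNA genes the promoter lies inside the gene, as an A box and a B box that recruit the factor TFIIIC. RefSeq lists both F44E7.13 and Y65B4BR.10 as unclassified non-coding RNAs, with no function given.

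The sequences around the F44E7.13 summit are shown because its region had the highest signal of all nuclear regions in the pooled list, and because a neighbouring ncRNA gene, F44E7.14, carried a region of its own and shared a word with it. They were read from the RefSeq WBcel235 assembly on the plus strand, which is the sense strand of both ncRNA genes. The first stretch, chrV:5780879-5780908, holds the pooled summit base at position 6 counted from its 5′ end, and its capitals mark parts of both arms of an inverted repeat. The summit of replicate 1 alone, chrV:5780890, lay between the arms, and that of replicate 2 alone, chrV:5780858, lay outside the stretch. Each arm is 8 bp long, reads AGGGCCTA on one strand or the other, and runs 1 base past the printed stretch; the spacer between the arms is 16 bp. The second stretch, chrV:5780923-5781015, is the portion of F44E7.13 outside the neighbouring gene F44E7.5, with a GAGAGAGA repeat in capitals. The third, chrV:5780154-5780254, is the whole of F44E7.14, with AGGGCCTA in capitals, and the first capital, at position 44, is its summit base.
F44E7.13 summit: AGGCCCTgcaggcatgtgttggaAGGGCCT
F44E7.13 outside F44E7.5: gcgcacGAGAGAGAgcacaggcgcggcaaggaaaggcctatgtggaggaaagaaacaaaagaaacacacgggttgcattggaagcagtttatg
F44E7.14: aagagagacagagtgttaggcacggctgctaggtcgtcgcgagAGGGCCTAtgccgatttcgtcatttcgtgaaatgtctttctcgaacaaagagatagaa

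AGGGCCTA was picked out after these sequences were seen, so its counts describe the lists and were not tested. On either strand the word lay within 50 bp of the summit in 2 of 349 regions of the pooled list, and these were the regions at F44E7.13, with 2 matches, and at F44E7.14, with 1. Among the 96829 other regions of the pooled ranked list, 61 (0.0630%) had the word at that distance, and 1 of them had it more than once. Within 250 bp of the summit, the thresholded regions with the word became 3, the added one being at mrpr-1, the gene for the RNA of ribonuclease MRP. The share of other ranked regions was then 0.262%. The word occurs 491 times in the genome on both strands together.

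F44E7.13 stood near the top of every list. Its pooled peak ran over 167 bp at chrV:5780788-5780954, with the summit 15 bp downstream of the TSS, and had a signal value of 306.3. The signal value is the enrichment score that the authors' peak caller gave each peak, and its scale differs between lists. In replicate 1 alone the peak was 96 bp wide, its summit lay 21 bp downstream of the TSS and its signal value was 164.2. In replicate 2 alone it was 280 bp wide, its summit lay 11 bp upstream of the TSS and its signal value was 139.4. The summits of the 2 samples thus fell on both sides of the annotated start.

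By rank, F44E7.13 was number 16 of 349 regions in the pooled list, number 16 of 315 in the conservative list, which the authors made by comparing the 2 samples, number 18 of 150 in the replicate 1 list and number 16 of 102 in the replicate 2 list. All regions above it in the first 3 of these lists, and all but 1 in the replicate 2 list, were mitochondrial. Among nuclear regions it ranked 1 of 330 in the pooled list, 1 of 128 in replicate 1 and 2 of 84 in replicate 2. The ranked lists of the pooled samples and of replicate 1 also hold nuclear regions of higher signal outside the thresholded lists: in ranked lists F44E7.13 was 2 of 97158 nuclear regions pooled, 6 of 47740 in replicate 1 and 2 of 46288 in replicate 2. The median signal value of nuclear regions was 75.6 in the pooled list, 51.9 in replicate 1 and 53.5 in replicate 2. The peak was also one of 6 among 364 in the pooled list that were narrower than 280 bp, the width given to nearly all the rest, and 3 of these 6 were mitochondrial. In the replicate 1 list the usual width was 250 bp.

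Y65B4BR.10 sat in the middle of the pooled list, so by signal its region was not strong next to the others. Its pooled peak, chrI:536680-536959, had the usual width of 280 bp, had its summit 111 bp downstream of the TSS, inside the gene, and had a signal value of 76.2. The whole gene lay within the peak. The region ranked 180 of 349 in the pooled list, 180 of 315 in the conservative list and, among nuclear regions, 161 of 330 in the pooled list.

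In single samples Y65B4BR.10 passed the authors' threshold in replicate 2 only. There the signal value was 43.5, the summit lay 149 bp downstream of the TSS, past the end of the gene, and the rank was 91 of 102. In replicate 1 the peak stood in the ranked list alone, with a signal value of 34.4 and a summit 61 bp downstream of the TSS. Its rank there was 483 of 47762 regions, against 143 of 46306 in the ranked list of replicate 2. Passing in one sample and not in the other does not show that the samples differ, and the difference was not tested.

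**Figure D1:**
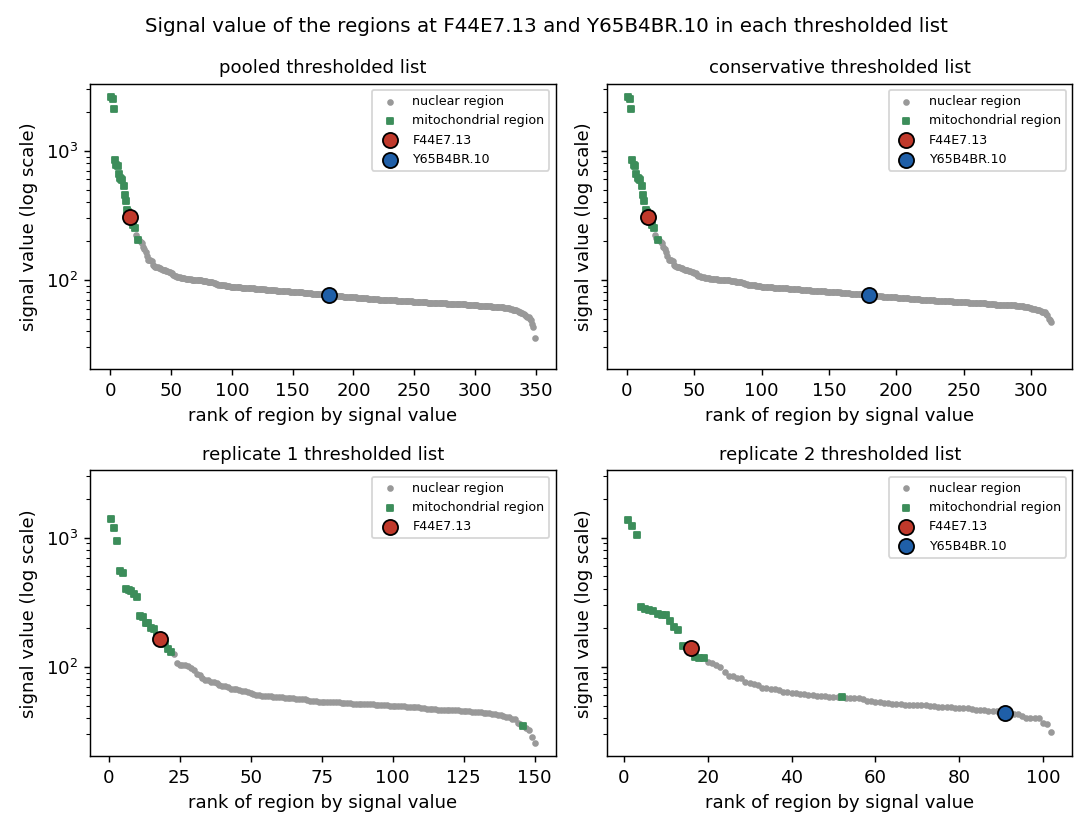
Signal value (log scale) of every region against its rank in the 4 thresholded lists, with F44E7.13 in red, Y65B4BR.10 in blue and mitochondrial regions as green squares. F44E7.13 sits at the head of the nuclear regions in the pooled list at 306.3, Y65B4BR.10 lies at the middle of that list at 76.2 and is absent from the replicate 1 list.

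The authors' thresholded lists hold peaks with a global irreproducible discovery rate (IDR) under 0.01, so −log10 IDR is above 2. The IDR is low where a peak ranks high in both of 2 paired inputs. A peak that ranks alike but low in both does not get a low IDR. For F44E7.13 it was 3.85 in the pooled ranked list, 3.77 in the comparison of the 2 samples, 4.22 in replicate 1 and 4.20 in replicate 2. For Y65B4BR.10 it was 2.52 in the pooled ranked list, 2.46 in the comparison of the 2 samples, 1.77 in replicate 1 and 2.04 in replicate 2. The replicate 1 value is the one under the threshold, and the replicate 2 value is just above it. Each single-sample list holds 1 sample, and the inputs paired for the pooled ranked list were not examined. Only the values from the comparison of the 2 samples, 3.77 and 2.46, are therefore read as agreement between replicates. Among ncRNA genes with no short noncoding TSS near the summit, those just inside in the pooled list were F45D3.12 at 2.03 and ZK816.8 and ZK816.9, which share a region, at 2.05. Those just outside were K11D9.7 at 1.99 and F52D10.7 at 1.98, with signal values of 60.7 and 65.2.

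The rule's distance limit is close for F44E7.13. The TSS of cel-mir-253, a miRNA gene, lay 268 bp from the pooled summit and 274 bp from the replicate 1 summit, but 242 bp from the replicate 2 summit. In the replicate 2 list F44E7.13 would therefore not count as free of short noncoding genes. For Y65B4BR.10 the nearest such TSS was that of the snoRNA gene Y65B4BR.12, 2266 bp from the summit.

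Of all ncRNA genes, 133 (1.71%) had a pooled region within 250 bp of the TSS, and of genes of all types 403 (0.859%) did. In most of these 133 cases a short noncoding gene lay within reach of the same summit, and without one the count was 27 genes (0.348%, 95% Wilson interval 0.239 to 0.506%) at 22 regions. The conservative list gave 132 genes (1.7%) and 23 (0.296%). The replicate 1 list gave 49 (0.631%) and 9 (0.116%), and F44E7.13 was among the 9. The replicate 2 list gave 37 (0.477%) and 5 (0.0644%), with Y65B4BR.10 among the 5 and F44E7.13 left out by its distance to cel-mir-253. The members were chosen on these calls, so nothing is read from the shares.

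The 22 regions had signal values between 58.6 and 306.3, with a median of 76.8. F44E7.13 was the highest, 2.15-fold above the next, the region at rpr-1 with 142.5. The gene rpr-1 encodes the RNA of ribonuclease P, which trims the 5′ ends of tRNAs. All other regions lay under 90, so the order below rpr-1 rests on small steps. F08G2.13 had 89.2, WBGene00195021 had 88.6, srpr-2.1, which encodes a signal recognition particle RNA, had 86.4, F44E7.14 had 85.7 and mrpr-1 had 85.3. C14F11.14 followed with 83.2, srpr-2.2 and R144.16 shared a region with 81.7, and F56F3.10 and F56F3.11 shared one with 80.7. Y65B4BR.10, with 76.2, was number 14 of the 27 genes and close to the median of the 22 regions. Of the 22 regions, 16 overlapped one of the conservative list, 4 one in both single-sample lists, as at F44E7.13, and 14 one in neither. Y65B4BR.10 was among those found in 1 sample.

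The signal values of the 2 samples stand side by side for each peak in the authors' comparison of the samples, whose columns do not name the sample and are called first and second here. Of 51611 peaks in the ranked list of replicate 1, 42180 matched the first sample in position and signal value and 0 the second. Of 53307 in that of replicate 2, 43811 matched the second and 0 the first. The members' values here are therefore those given above for replicates 1 and 2, not a separate measurement. F44E7.13 had 164.2 in the first and 139.4 in the second sample, a log2 ratio of 0.24. Y65B4BR.10 had 34.4 in the first and 43.5 in the second, a log2 ratio of −0.34. The median log2 ratio over 328 nuclear thresholded regions was 0.12, with quartiles of −0.31 and 0.50, so F44E7.13 lay inside the middle range and Y65B4BR.10 just below it. By rank among the 328, F44E7.13 was 1 in the first and 2 in the second sample, and Y65B4BR.10 was 231 and 101.

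The genes whose pair of values was most like that of F44E7.13, by distance on the log2 scale over 327 other nuclear regions and 2 samples, were F44E5.4, C51F7.4 and T03F7.8. F44E5.4, a heat-inducible Hsp70 gene, had 125.1 and 142.7 and lay 0.39 away. The snoRNA gene C51F7.4 lay 0.72 away and the snoRNA gene T03F7.8 lay 0.79 away. For Y65B4BR.10 the nearest were the snoRNA gene M106.6, with 35.1 and 43.1 at a distance of 0.035, the tRNA gene WBGene00014524 at 0.038 and the ncRNA gene R12E2.18 at 0.051. Unlike the members' regions, the one at R12E2.18 had a short noncoding TSS within 250 bp of its summit. The distances reflect where the points lie: F44E7.13 stood apart at the top and Y65B4BR.10 in the dense middle of the plot.

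**Figure D2:**
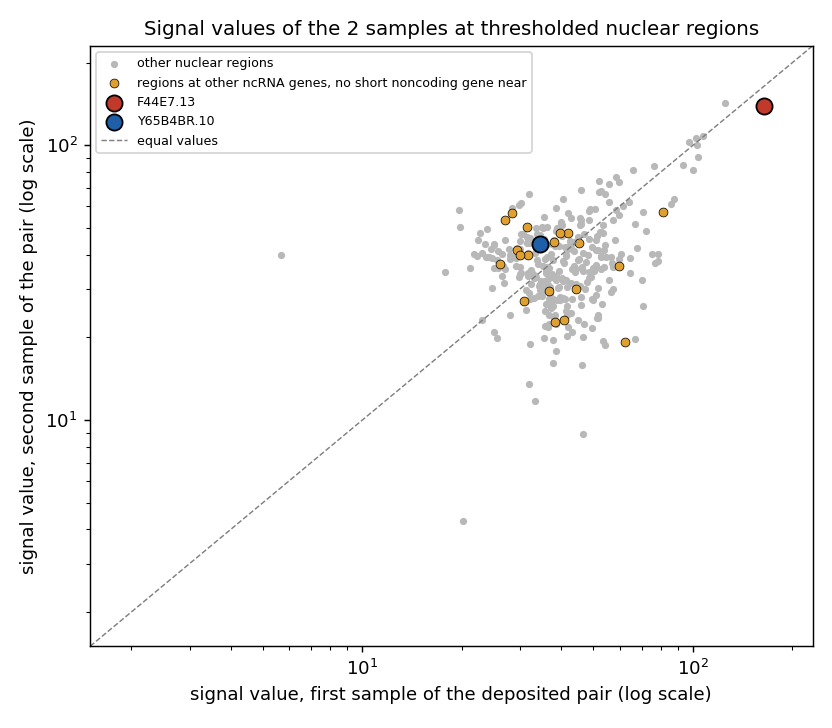
Signal value of the 328 nuclear thresholded regions in the first (x axis) and second (y axis) sample of the authors' pair, both log scales, with regions at other ncRNA genes in orange where no short noncoding TSS lay near the summit. F44E7.13 lies at the upper right at 164.2 and 139.4, and Y65B4BR.10 among the bulk at 34.4 and 43.5.

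F44E7.13 overlaps the start of a protein-coding gene on the opposite strand. F44E7.5, which RefSeq lists as an F-box domain protein, starts 53 bp downstream of the F44E7.13 TSS, so that the genes share 54 bp head to head. The pooled summit lay 38 bp from the F44E7.5 TSS, in the 5′ UTR of its transcript F44E7.5a.1 (chrV:5780777-5780922), and 135 of the 167 bp of the peak overlapped that UTR, against 86 bp that overlapped F44E7.13. A peak at this place is equally a peak at the promoter of F44E7.5, and the genes cannot be told apart as its target. The other genes inside the F44E7.5 interval are cel-mir-253 on its strand, and F44E7.14 and F44E7.15 on the strand of F44E7.13.

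F44E7.14 had its own region in all 4 thresholded lists, with the pooled summit at −672 bp from the F44E7.13 TSS. Its signal value was 85.7 in the pooled list, 39.7 in replicate 1 and 48.0 in replicate 2, with a −log10 IDR of 2.76 in the pooled ranked list. F44E7.15, between F44E7.14 and F44E7.13, had no peak within 250 bp of its TSS in any list. Farther upstream, with its TSS at −3916 bp, F44E7.4, which RefSeq lists as an insulin-degrading enzyme, had a pooled region with a signal value of 101.7. F44E7.4 was in the replicate 1 thresholded list with 64.4, and in replicate 2 it was in the ranked list alone, with 34.3. In all, 3 of the 8 other genes with a TSS within 5000 bp had a pooled region within 250 bp of it, counting F44E7.5, whose region is the one at F44E7.13. The other F-box gene nearby, fbxa-183, had none in any list.

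Y65B4BR.10 lies between protein-coding genes and overlaps none. Upstream, wwp-1, which encodes an E3 ubiquitin ligase, starts on the opposite strand 191 bp away from the Y65B4BR.10 TSS and 302 bp from the pooled summit. Downstream lies the end of icd-2, which encodes a subunit of the nascent polypeptide-associated complex. None of the 5 other genes with a TSS within 5000 bp had a thresholded region within 250 bp. In the pooled ranked list icd-2 had a peak with a signal value of 27.8 and a −log10 IDR of 0.24, psf-3, a gene of the GINS replication complex, had 12.9, and the ncRNA gene Y65B4BM.2 had 21.3. At wwp-1 the ranked list of the 2 samples compared gave 18.2.

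The members thus share a head-to-head protein-coding neighbour, with a TSS on the opposite strand within 500 bp. That arrangement held for 9 of the 27 ncRNA genes with such a region (33.3%) and for 1061 of all 7764 ncRNA genes (13.7%). Both members are among the 9, and the 27 genes stand at 22 regions, so some share a region. The distance was chosen after the neighbours were seen, and the shares were not tested.

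**Figure D3:**
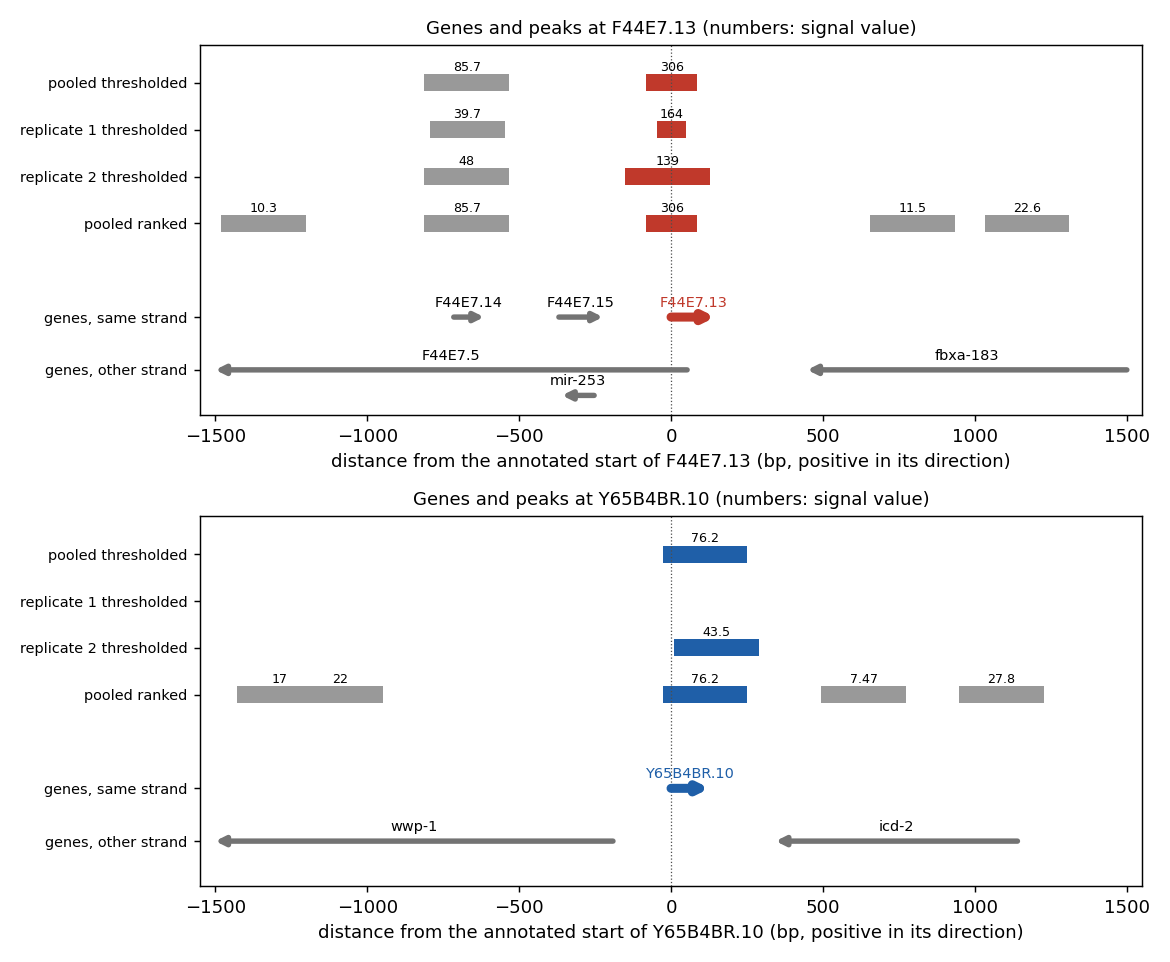
Genes (arrows, cut at the edges) and peaks (bars, with the signal value above) within 1500 bp of the TSS of F44E7.13 (top) and Y65B4BR.10 (bottom), in 4 lists, with distance in bp along the x axis. F44E7.13 has its peak at the start of F44E7.5 and a second region at F44E7.14 with 85.7, while Y65B4BR.10 has 1 thresholded peak with 76.2 in the gap between icd-2 and wwp-1.

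Neither locus held the box elements of a tRNA-type gene. In the 501 bp centred on each pooled summit, both strands were searched for an A box, written as TGGC, any 2 bases and AGTGG, and for a B box, written as GGTTCGA, any base and TCC. No A box with up to 1 mismatch and no B box with up to 2 mismatches was present at either member. Such an A box was present in 38.0% of other thresholded regions and in 18.3% of those with no short noncoding TSS near the summit. For such a B box the shares were 51.6% and 22.3%. At 2 mismatches F44E7.13 had 2 A box matches and Y65B4BR.10 had 0. At that setting a match was present in 75.8% of other thresholded regions and in 58.3% of those with no short noncoding TSS near the summit. Among other ranked regions the share was 53.2%. The exact B box was present in 16.1% of the other thresholded regions, in 1.14% of those with no short noncoding TSS near the summit, and in 2.58% of windows at the starts of other ncRNA genes. The exact A box was present in 8.93%, 6.29% and 0.979% of the same sets. For a gene without a short noncoding neighbour the absence of an exact box was therefore the common case in these lists.

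A run of TTTTT, the termination signal of RNA polymerase III, was not found within 50 bp past the end of either gene. The first lay 197 bp past F44E7.13 and 192 bp past Y65B4BR.10. Within 50 bp such a run followed 83.8% of 634 tRNA genes and 25.3% of ncRNA genes. A missing match says only that these letters are not in the window.

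Other short motifs differed between the members. F44E7.13 had 1 GAGAGAGA, with its first base 60 bp downstream of the TSS and its centre 49 bp from the summit. The word was found in 8.07% of other thresholded regions, 3.78% of other ranked regions and 9.44% of windows at other ncRNA genes. Y65B4BR.10 had 1 TATAAA on its own strand, 150 bp downstream of the TSS, past the end of the gene, a word found in 44.1% of other thresholded regions and 41.3% of other ranked ones. Neither had TGACGT, the core of the CRE element that some bZIP factors bind, which 11.8% of other thresholded and 15.7% of other ranked regions held. Neither had the word CACTCGGC, a heat shock element or the snoRNA C box TGATGA. These were present in 7.20%, 4.32% and 28.5% of other thresholded regions, so their absence was the common case.

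Both loci are single-copy at the length of a short read. All 31-base words of the 501 bp windows occurred once in the genome, which was so for 44.7% of other thresholded regions, 63.4% of those with no short noncoding TSS near, and 73.9% of other ranked regions. Soft-masked repeat made up 20.96% of the F44E7.13 window and 13.2% of its peak, and 11.6% of the Y65B4BR.10 window and 0% of its peak, against a median of 22.6% for the windows of other thresholded regions. The G+C content was 43.9% in the F44E7.13 window and 55.1% in its narrower peak, and 37.3% in the Y65B4BR.10 window and 41.8% in its peak. The median window had 39.9% in other thresholded regions and 36.7% in other ranked regions. The F44E7.13 window was above 75.2% of the other thresholded regions in G+C content and the Y65B4BR.10 window above 30.8% of them.

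A search of the genome found no similar stretch for F44E7.13 at an e-value up to 0.001. Y65B4BR.10 had 1, on the same chromosome and strand, between psf-3 and icd-2, that aligned over 75 bp with 78.7% identity (e-value 7.58e-07 for the gene as query). A peak overlapped that stretch in all 4 ranked lists, with its summit outside the stretch in each, and none did so in a thresholded list. In the pooled ranked list its summit lay 84 bp from the centre of the stretch, and its signal value was 34.8, against 76.2 at Y65B4BR.10. It was above 91.1% of the 97178 regions of that list, but its −log10 IDR was 0.784. In replicate 1 the overlapping peak had 20.4, against 34.4 at Y65B4BR.10, and in replicate 2 it had 22.4, against 43.5.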

How the data were processed

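Peak lists from 2 ChIP-seq samples of 1 group were used. The signal value per peak is the authors' deposited value from their peak caller, and −log10 of the global IDR is deposited in the ranked lists. Per the deposited notes on the files, 1 control alignment was used and the assembly is ce11. Which aligner and peak caller made them is not given in the sources used here. No list gives read counts, so depth is unknown here. Values given for replicate 1 or 2 came from that sample's own lists, and those of the first and second sample (ratios, likeness and their plots) from the deposited comparison of the samples. Another 6 per-input columns, in the other ranked lists, went unused.

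Peaks that overlapped within a list were merged into regions, each with the summit and signal value of the strongest peak. TSSs came from Ensembl release 115, and product names and genome sequence from RefSeq on the same assembly. Motifs were matched on both strands within 250 bp of the summit, and 31-base words were counted over the genome. Similar stretches were sought with BLAST 2.17.0. Python 3.11.15, NumPy 2.4.6 and pandas 2.3.3 were used, and word counting, joining and matching were tested on simulated data. Wilson intervals (95%) cover counting error over genes only. They treat genes as independent although some share a region, so they may be too narrow. No test between groups was possible, and no p-value was computed.

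The text names the members, genes with a TSS within 5000 bp, the 3 genes most alike in each member's sample values, the leading other ncRNA genes, zip-11 and unc-119. Genes named for the word AGGGCCTA, the similar stretch or the threshold were chosen after their values were seen. The members, lists and motifs were chosen with earlier results of these data known. Alternatives were the list used, nuclear regions only, the distances, mismatches, word length and leaving out a replicate.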

Additional observations from a re-analysis of the deposited data

How the results depend on the processing

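The share of regions with a lower signal value than F44E7.13 was 95.4% in the pooled list. It was 84.3 to 88% when a replicate was left out, that is, in the list of the other sample. It was 99.7% among nuclear regions. In ranked lists it was 99.9825% pooled, 99.9836% for the 2 samples compared, 99.9518% in replicate 1 and 99.9654% in replicate 2, since these lists add many weak regions. For Y65B4BR.10 the share was 48.4% in the pooled list, 42.9% in the conservative list and 10.8% without replicate 1. Without replicate 2 it has no value, as replicate 1 has no thresholded peak there. In ranked lists it was 99.788% pooled, 99.7899% for the 2 samples compared, 98.9887% in replicate 1 and 99.6912% in replicate 2.

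The 133 ncRNA genes with a pooled region became 82 at 100 bp, 74 in the upper 50% by signal and 37 to 49 with a replicate left out. The 27 without a short noncoding neighbour became 16 at 100 bp, 44 at 1000 bp, 13 in the upper 50% and 5 to 9 with a replicate left out. At 100 bp the limit for short noncoding genes was also 100 bp, but at 1000 bp it stayed at 250 bp. These 2 settings are therefore not like for like. Single-sample lists are shorter, which itself lowers these counts. No paired analysis was possible because there is 1 group. Limits are the unknown depth, 1 strain and 2 samples, and signal scales that differ between lists.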
